A study of Mus musculus with 6 samples.

Results

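The genes described here encode matrix glycoproteins, elastic fibre components and the enzymes that process and crosslink the extracellular matrix. They were listed by name, 39 in all, and 35 of them were measured by a probe set that the platform annotation gives a single gene symbol, among 19938 genes so measured. Fbn1, Efemp2 and Spp1 were not analysed here, and the probe set of Loxl2 is shared with a second gene, Gm21451, so it was kept out of the tests. Expression was measured on Affymetrix arrays, 1 array per tumour, in 3 relapsed gliomas (numbered 1, 2 and 3), which grew after a mutant form of the epidermal growth factor receptor (EGFR) that drove them had been extinguished, and in 3 control gliomas (numbered 1, 2 and 4). All 6 tumours came from mutant EGFR-driven mouse glioma cells placed under the skin of the flank of Nu/Nu mice, athymic animals that lack mature T cells but keep fibroblasts, vessels and myeloid cells, and were taken at a volume of 2 cm3. Some animals received doxycycline in their water at 2 g/L, but the labels do not say which group did. The age of the mice and the number of animals and of cell lines are not given either. The comparison asks how tumours that regrew without the driving receptor differ from control gliomas.

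Fibronectin and fibrillin microfibrils form the first scaffold of connective tissue matrix, and elastin is deposited on the microfibrils with the help of fibulins. Lysyl oxidases then link elastin and collagen chains covalently, while matricellular proteins such as periostin, the thrombospondins and the CCN family bind the scaffold and cell surface receptors without bearing load themselves. Brain tissue holds little of this fibrous matrix outside vessel walls and meninges, whereas skin and the tissue beneath it are rich in it. The array reads RNA from the whole tumour mass, so a lower or higher number of cells of a type and less or more RNA per cell cannot be told apart.

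Matrix genes were higher in relapsed than in control tumours for a minority of the members, and none of the measured members passed as lower. The 7 that rose were Dpt, Efemp1, Fap, Pcolce, Postn, Wisp1 and Fn1. They spread over every functional group, and their rises ran from 5.75-fold for Dpt to 1.27-fold for Fn1. The test was limma fitted to all 19938 genes, and a Benjamini-Hochberg adjusted p under 0.05 counted as a call. The 7 called members made up 20.0% of the 35, against 9.16% of all genes. All of them were higher, against 3.69% of all genes called higher, and none was lower, against 5.47% called lower. The groups did not overlap for 12 members (34.3%), against 30.8% of all genes, and 11 of these were higher (31.4%, against 13.0%) and 1 lower (2.86%, against 17.8%). At an unadjusted p under 0.05, limma gave 11 members higher (31.4%, against 11.2% of all genes) and 1 lower (2.86%, against 15.4%). The median difference over the members was 0.33 on the log2 scale, against -0.019 over all genes, and 27 members had a higher mean and 8 a lower mean in relapsed tumours. The members' counts rest on the presence of all 6 arrays. Without relapsed 1, 2 or 3, limma called 4, 0 or 0 members higher, and without control 1, 2 or 4 it called 1, 2 or 0. Those fits called fewer genes of all kinds as well, 264 to 975 in place of 1826, and at an unadjusted p under 0.05 they gave 9 to 13 members higher (25.7% to 37.1%, against 8.81% to 10.7% of all genes) and 1 to 4 lower (2.86% to 11.4%, against 12.3% to 14.8%). The 4 lower members were in the fit without relapsed 1, which had 10 higher. With each array centred on its median, the split over all genes was 696 higher and 1687 lower in place of 735 and 1091, and 7 members were called higher, with Fn1 lost (adjusted p = 0.0627) and Lox gained (adjusted p = 0.0453).

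**Figure D1:**
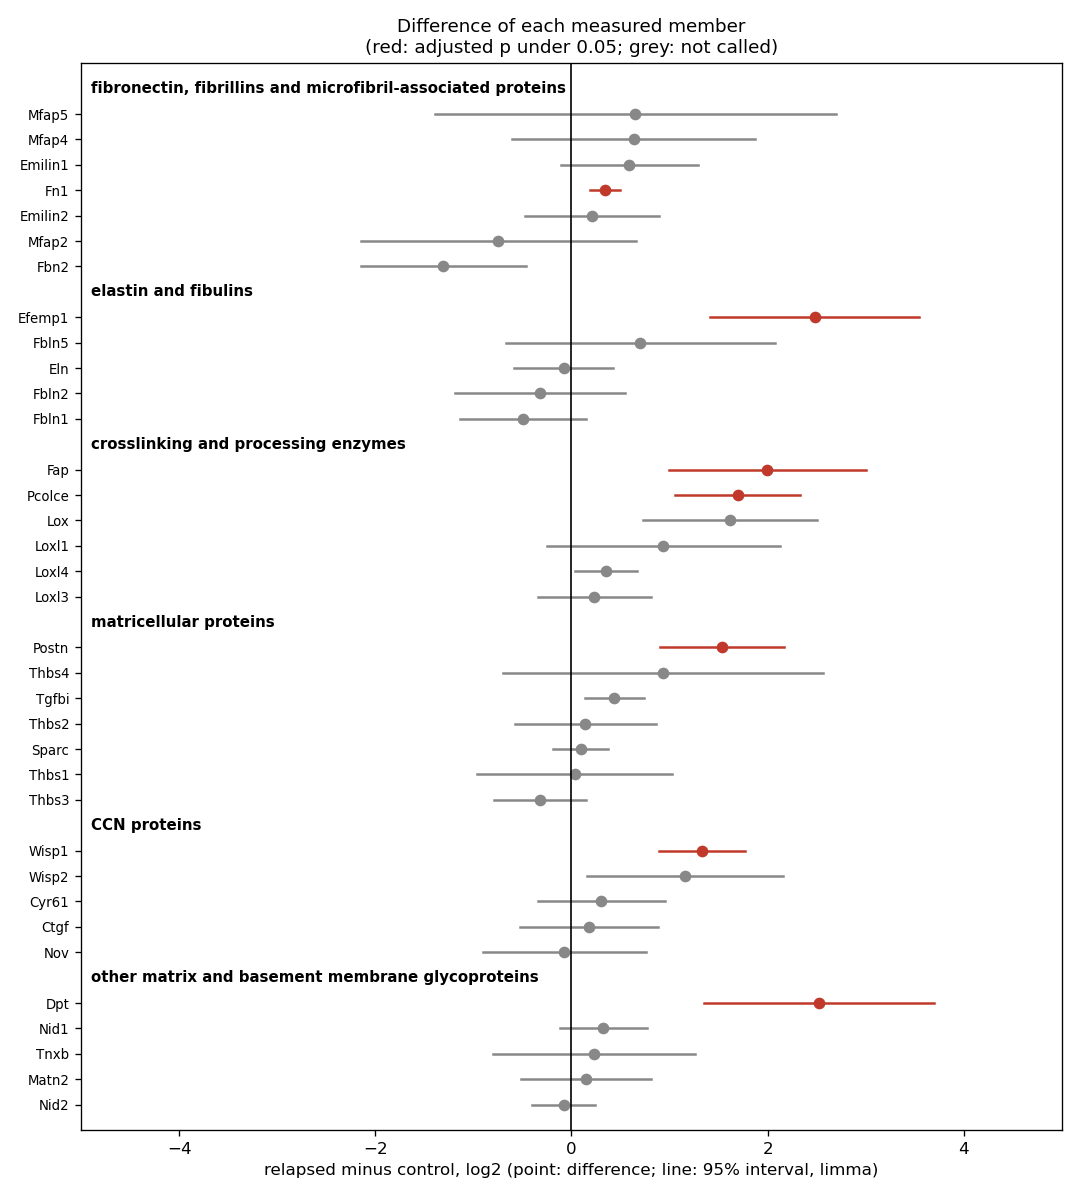
Difference of each of the 35 measured members between relapsed and control tumours on the log2 scale (horizontal axis), grouped by function; points are limma differences over 3 arrays per group, lines their 95% intervals, and red marks an adjusted p under 0.05. The red members are spread over all 6 functional groups, all points of the crosslinking and processing group lie to the right of 0, and Fbn2 is the lowest point.

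The promoters of the called members that RefSeq covers are shown because these genes rose together. They are 300-base windows, from 250 bases before to 50 after the annotated start, in the assembly GRCm38.p6, written 5′ to 3′ on the strand of the gene. Of the 7 called members, 4 had an entry, and Postn had 2, of which the one with a motif match is shown. Capitals mark matches to the motifs searched on both strands, which were TATAAA (the core promoter box bound by TBP), GGAATG (TEAD factors), TGANTCA (AP-1 factors), CAGACA (SMAD factors) and the CArG box of serum response factor.
Dpt promoter, chr1:164796413-164796712, plus strand: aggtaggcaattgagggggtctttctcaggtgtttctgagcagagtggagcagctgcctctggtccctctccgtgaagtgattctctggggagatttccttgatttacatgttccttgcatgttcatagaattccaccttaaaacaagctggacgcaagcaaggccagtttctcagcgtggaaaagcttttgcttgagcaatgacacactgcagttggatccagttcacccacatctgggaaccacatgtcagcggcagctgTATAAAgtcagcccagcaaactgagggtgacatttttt
Postn promoter, chr3:54360857-54361156, plus strand: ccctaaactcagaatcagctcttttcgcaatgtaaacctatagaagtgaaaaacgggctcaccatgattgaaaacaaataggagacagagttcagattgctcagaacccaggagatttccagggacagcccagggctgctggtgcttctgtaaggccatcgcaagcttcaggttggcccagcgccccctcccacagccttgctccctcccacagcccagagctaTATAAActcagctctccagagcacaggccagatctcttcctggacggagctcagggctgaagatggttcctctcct
Efemp1 promoter, chr11:28852955-28853254, plus strand: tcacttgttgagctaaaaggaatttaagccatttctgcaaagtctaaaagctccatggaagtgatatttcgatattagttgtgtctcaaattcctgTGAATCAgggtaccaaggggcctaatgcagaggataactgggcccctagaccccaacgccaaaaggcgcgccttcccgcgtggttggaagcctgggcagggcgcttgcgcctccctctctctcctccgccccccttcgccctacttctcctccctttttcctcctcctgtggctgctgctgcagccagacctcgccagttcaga
Pcolce promoter, chr5:137611355-137611654, minus strand: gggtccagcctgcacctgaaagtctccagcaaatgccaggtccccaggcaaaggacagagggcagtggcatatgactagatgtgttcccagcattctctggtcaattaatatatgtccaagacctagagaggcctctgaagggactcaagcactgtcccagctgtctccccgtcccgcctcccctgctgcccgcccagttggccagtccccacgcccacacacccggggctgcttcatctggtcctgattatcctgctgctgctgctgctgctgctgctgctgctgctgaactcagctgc
The Postn window held TATAAA at 26 to 21 bases before the annotated start, and the Dpt window held it at 12 to 17 bases after the start. The Efemp1 window held TGAATCA, a match to TGANTCA on both strands, at 154 to 148 bases before the start, and the Pcolce window held none of the 5 motifs. No matches overlapped in these windows. TATAAA was found in 4 of 24 windows of the 19 measured members that were counted (16.7%), against 13.6% of all 32851 windows. Members on the chromosome that holds Lox and Fbn2 were kept out of this count. The windows of all genes had no such filter, so the shares compare sets that were not chosen alike. GGAATG was found in 5 (20.8%, against 14.7%), TGANTCA in 2 (8.33%, against 7.81%), CAGACA in 8 (33.3%, against 21%) and the CArG box in 0 (against 1.63%). The windows counted for the SMAD motif include overlapping windows of Fbln1 that hold the same site, so that site was counted 2 times. In the 5 windows of the called members, the SMAD motif, the TEAD motif and the CArG box were all absent. A match describes the letters and is not a binding site.

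Among fibronectin, the fibrillins and the proteins that coat their microfibrils, 1 of 7 measured members rose and none fell. Fn1 encodes fibronectin, which cells assemble into the earliest provisional matrix. Its level on the log2 scale was 13.03, 13.03 and 13.14 in relapsed 1, 2 and 3, against 12.78, 12.73 and 12.67 in control 1, 2 and 4. All relapsed tumours lay above all control tumours, by a narrow margin of 0.25 on the log2 scale. The rise was small, at 0.34 ± 0.06 (SE, 3 arrays per group) (limma adjusted p = 0.0330, and 0.0241 to 0.515 over the alternatives). Fn1 lost its call in every fit that left out an array, where its difference lay between 0.31 and 0.37. With all 6 arrays it also lost the call under median centring (0.27, adjusted p = 0.0627), when the dimmer 50% of genes stayed out of the fit (adjusted p = 0.0507) and when the number was a block (0.28, adjusted p = 0.515).

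Fbn2, the fibrillin that is laid down mainly in developing tissue, was the member with the largest difference in the other direction. It stood at 8.58, 7.68 and 7.35 in relapsed 1, 2 and 3, against 8.92, 9.40 and 9.21 in control 1, 2 and 4. The groups did not overlap, and relapsed 1 lay closest to the controls. The difference of -1.31 ± 0.34, with group means of 7.87 ± 0.64 and 9.18 ± 0.24 (SD), missed the threshold with an adjusted p of 0.0748 in limma. Without relapsed 1 the difference was -1.66 with an adjusted p of 0.0338, and its adjusted p ran from 0.0277 to 0.584 over the alternatives.

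The microfibril-associated proteins differed more among the relapsed tumours than between the groups. Mfap5, which binds fibrillin and Notch ligands, had 10.84, 9.15 and 8.17 in relapsed 1, 2 and 3, against 9.09, 9.47 and 7.65 in control 1, 2 and 4. Its difference was 0.65 with a 95% interval of -1.39 to 2.69, and -0.077 without relapsed 1. Mfap4, an integrin-binding protein of elastic fibres, had 10.69 in relapsed 1 against 9.12 and 9.01 in relapsed 2 and 3, and the control tumours ran from 8.66 to 9.38. Mfap2, the other small fibrillin-binding glycoprotein, had 10.07 in relapsed 1 against 8.09 and 8.65 in relapsed 2 and 3, and 9.27 to 10.24 in controls. Without relapsed 1, Mfap4 differed by 0.095 and Mfap2 by -1.31, in place of 0.63 and -0.74. Emilin1 and Emilin2, glycoproteins at the interface of elastin and microfibrils, differed by 0.59 ± 0.28 and 0.21 ± 0.27, and their groups overlapped.

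Elastin itself showed no detectable difference, while 1 of its 4 measured fibulin partners was among the strongest rises of the whole set. Efemp1 encodes fibulin-3, a secreted glycoprotein of basement membranes and elastic tissue. It stood at 11.66, 10.16 and 10.75 in relapsed 1, 2 and 3, against 8.78, 7.96 and 8.39 in control 1, 2 and 4. The lowest relapsed tumour lay 1.38 above the highest control on the log2 scale. Efemp1 rose by 2.48 ± 0.43 (SE), or 5.58-fold (limma adjusted p = 0.0301). Without relapsed 1 it rose by 2.08 with an adjusted p of 0.0471, the only fit short of an array that kept its call. Its adjusted p ran from 0.0110 to 0.393 over the alternatives.

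None of the other 3 measured fibulins was called. Fbln5, which tethers elastin to microfibrils, had 10.24 in relapsed 1, against 8.64 and 8.41 in relapsed 2 and 3 and 7.82 to 8.73 in the controls. Its difference of 0.70 ± 0.55 became 0.13 without relapsed 1. Fbln1 and Fbln2, fibulins of basement membranes and connective tissue, had lower means in relapsed tumours, by -0.49 ± 0.26 and -0.32 ± 0.35, with overlapping groups. Eln, which encodes tropoelastin, had 7.71, 6.99 and 7.06 in relapsed 1, 2 and 3, against 7.32, 7.32 and 7.36 in control 1, 2 and 4. Its difference was -0.080 with a 95% interval of -0.58 to 0.42. It was -0.31 without relapsed 1, and changed sign when relapsed 2 or relapsed 3 was left out, to 0.052 and 0.017.

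All 6 measured members of the crosslinking and processing group had a higher mean in relapsed tumours. Their median difference was 1.28 on the log2 scale, against -0.019 over all genes. The 2 that passed the test were Pcolce and Fap, and none of the measured lysyl oxidases was called. In 4 of the 6 the groups did not overlap, with relapsed tumours higher, against 13.0% of all genes. Those of Loxl4, 1 of the 4, were parted by only 0.014 on the log2 scale. Pcolce encodes the procollagen C-endopeptidase enhancer, which speeds the removal of the propeptide that keeps collagen soluble. It had 12.14, 11.34 and 11.60 in relapsed 1, 2 and 3, against 9.82, 10.35 and 9.82 in control 1, 2 and 4. All relapsed tumours lay well above the controls. Pcolce rose by 1.69 ± 0.25, or 3.24-fold (limma adjusted p = 0.0221), and kept its call without relapsed 1 (1.47, adjusted p = 0.0441) and without control 2 (1.87, adjusted p = 0.0463). Its adjusted p ran from 0.00851 to 0.455 over the alternatives.

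Fap encodes fibroblast activation protein, a membrane protease that cleaves denatured collagen and marks activated fibroblasts. It had 8.62, 7.84 and 7.49 in relapsed 1, 2 and 3, against 6.58, 5.45 and 5.92 in control 1, 2 and 4. The control 2 value was under 5.65, the median level of probe sets that the annotation leaves unnamed, so the fold of this dim gene is less certain. Fap rose by 2.00 ± 0.40, or 3.99-fold (limma adjusted p = 0.0423, and 0.0315 to 0.393 over the alternatives). It lost its call in every fit that left out an array and with all probe sets tested, and its difference stayed between 1.65 and 2.30.

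Lox, the lysyl oxidase that starts the covalent crosslinks of collagen and elastin, narrowly missed the threshold. It had 11.52, 11.35 and 10.57 in relapsed 1, 2 and 3, against 10.05, 9.52 and 9.03 in control 1, 2 and 4. The groups did not overlap, with relapsed 3 closest to the controls. The difference was 1.62 ± 0.36, or 3.06-fold (limma adjusted p = 0.0514). It passed with quantile normalization (0.0405), with median centring (0.0453) and with the dimmer 50% of genes left out (0.0215), and its adjusted p lay between 0.0215 and 0.393 over the alternatives.

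None of the 3 measured lysyl oxidase-like enzymes was called. Loxl1, which is needed for elastin renewal in mice, had 10.50, 8.75 and 9.29 in relapsed 1, 2 and 3, against 8.50, 8.96 and 8.28 in control 1, 2 and 4. Relapsed 1 alone lay far above the controls, and the difference of 0.94 ± 0.47 became 0.44 without it. Loxl4 differed by 0.35 ± 0.13, with groups parted by 0.014 on the log2 scale, and its dimmer second probe set by 0.66. Loxl3 differed by 0.23 ± 0.23, and by -0.018 without relapsed 1. The probe set shared by Loxl2 and Gm21451 had 10.52, 11.24 and 10.93 in relapsed 1, 2 and 3, against 10.96, 9.91 and 10.38 in control 1, 2 and 4, and these ranges overlapped.

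**Figure D2:**
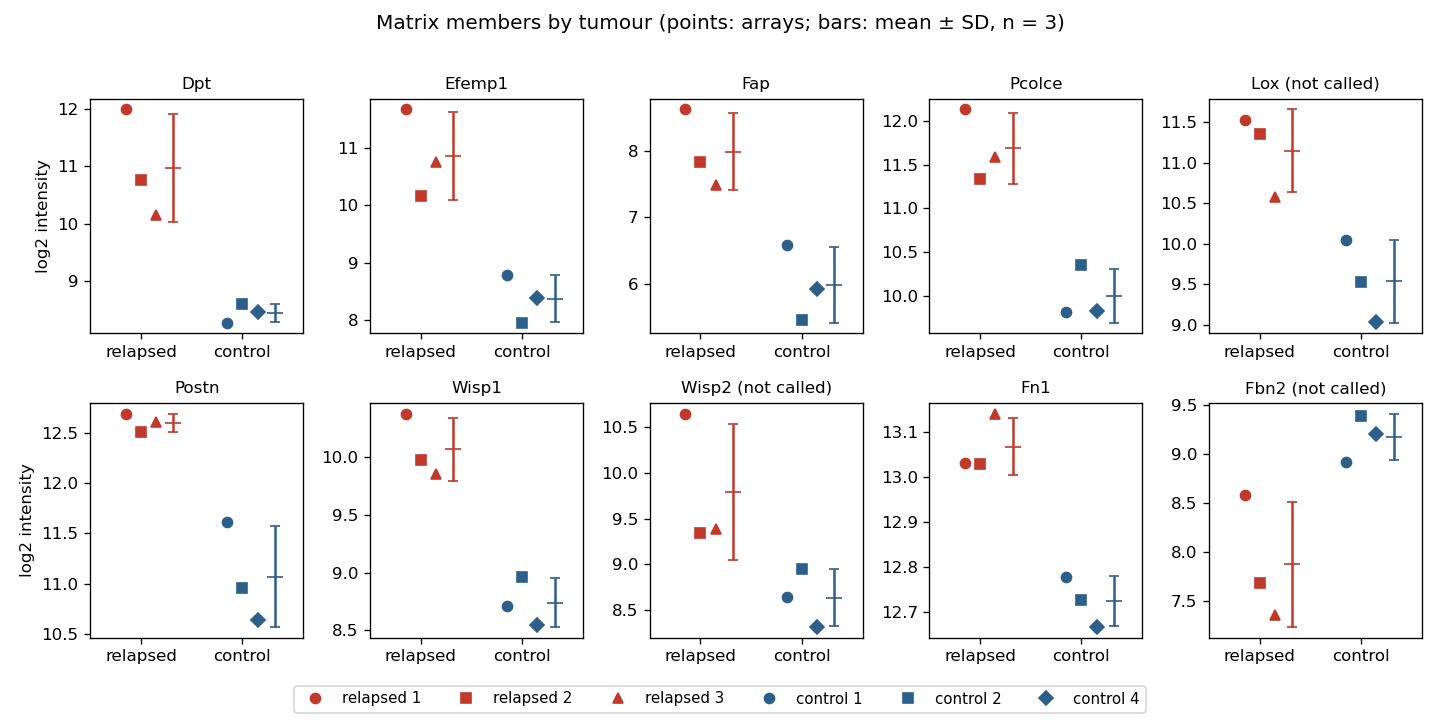
Log2 intensity of the 7 called members and of Lox, Wisp2 and Fbn2, which had groups that did not overlap and a difference of at least 1, in each relapsed tumour (red, left) and each control tumour (blue, right). Each panel has its own vertical axis, points are single arrays, and bars are the mean ± SD of 3 arrays. Relapsed 1 is the highest array for Dpt, Efemp1, Fap, Pcolce, Postn, Wisp1, Wisp2 and Lox, while the 3 relapsed tumours lie close together for Postn and Fn1.

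Of 7 measured matricellular proteins, Postn alone passed the test. It encodes periostin, which binds collagen and fibronectin and helps to recruit lysyl oxidase processing to the matrix. It had 12.69, 12.51 and 12.61 in relapsed 1, 2 and 3, against 11.62, 10.96 and 10.64 in control 1, 2 and 4. The relapsed tumours were nearly alike, with an SD of 0.09, against 0.50 among the controls. Postn rose by 1.53 ± 0.25, or 2.90-fold (limma adjusted p = 0.0280). It kept its call without control 1 (1.81, adjusted p = 0.0276) and in no other fit short of an array, and its adjusted p lay between 0.0110 and 0.393 over the alternatives.

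Tgfbi encodes a relative of periostin with the same fasciclin domains. It had 12.24, 12.02 and 12.19 in relapsed 1, 2 and 3, against 11.90, 11.51 and 11.72 in control 1, 2 and 4. The groups were parted by 0.12 on the log2 scale, and the difference of 0.44 ± 0.12 had an adjusted p of 0.0844 in limma. Sparc, a collagen-binding protein of many tumours, differed by 0.095 with a 95% interval of -0.18 to 0.37, and by 0.029 without relapsed 1.

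The thrombospondins, secreted glycoproteins of the matrix, gave no called member. Thbs1 and Thbs2, the angiogenesis-inhibiting trimers, differed by 0.033 with a 95% interval of -0.96 to 1.03 and by 0.14 with an interval of -0.57 to 0.86. Without relapsed 1 the difference of Thbs1 was -0.24, and without relapsed 2 that of Thbs2 was -0.093. Thbs4, a pentamer abundant in tendon and muscle, had 9.71 in relapsed 1 against 7.43 and 8.02 in relapsed 2 and 3, and the control tumours ran from 7.08 to 8.15. Its highest control value was that of control 2, which also had the highest skeletal muscle level. Among the relapsed tumours, relapsed 2 had the highest muscle level and the lowest Thbs4 value. The part of muscle in the Thbs4 values was not tested. The difference of Thbs4 was 0.93 ± 0.65, and 0.27 without relapsed 1. Thbs3 was -0.32 ± 0.19 with overlapping groups.

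Of the 5 CCN proteins, 1 passed the test and 2 had higher values in every relapsed tumour than in any control (against 13.0% of all genes). Wisp1, listed as Ccn4, is a secreted target of Wnt signalling. It had 10.38, 9.98 and 9.86 in relapsed 1, 2 and 3, against 8.72, 8.96 and 8.54 in control 1, 2 and 4. It rose by 1.33 ± 0.17, or 2.51-fold, with a limma adjusted p of 0.0182, the smallest among the members. Wisp1 kept its call without relapsed 1 (1.18, adjusted p = 0.0364) and without control 2 (1.44, adjusted p = 0.0444), and its adjusted p lay between 0.00724 and 0.402 over the alternatives.

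Wisp2, listed as Ccn5, lacks the C-terminal module of the other CCN proteins. It had 10.65, 9.34 and 9.38 in relapsed 1, 2 and 3, against 8.65, 8.95 and 8.32 in control 1, 2 and 4. Relapsed 1 was far above the rest, and the margin between the groups was 0.40 on the log2 scale. The difference of 1.16 ± 0.40 had an adjusted p of 0.142 in limma, and was 0.73 without relapsed 1. Ctgf (Ccn2) and Cyr61 (Ccn1), targets of the YAP and TEAD transcription factors, differed by 0.18 with a 95% interval of -0.53 to 0.89 and by 0.31 with an interval of -0.35 to 0.96. Without relapsed 1 the difference of Ctgf was -0.045. Nov (Ccn3) differed by -0.072 ± 0.33, and by 0.16 without control 4.

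Dpt had the largest difference of all measured members. It encodes dermatopontin, a small protein of skin that binds decorin and speeds collagen fibril assembly. It had 11.99, 10.76 and 10.15 in relapsed 1, 2 and 3, against 8.28, 8.60 and 8.46 in control 1, 2 and 4. The relapsed tumours were spread widely, with an SD of 0.94 against 0.16 in the controls, yet the lowest lay 1.55 above the highest control. Dpt rose by 2.52 ± 0.47, or 5.75-fold (limma adjusted p = 0.0356). Without relapsed 1 it rose by 2.01 with an adjusted p of 0.0330, the only fit short of an array that kept its call, and its adjusted p lay between 0.0132 and 0.404 over the alternatives.

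None of the remaining 4 measured glycoproteins was called. Nid1 and Nid2 encode the nidogens, which link laminin to collagen IV in basement membranes, and differed by 0.33 ± 0.18 and -0.079 ± 0.13. Tnxb, the tenascin of loose connective tissue, had 8.05, 7.26 and 6.47 in relapsed 1, 2 and 3, against 7.00, 7.32 and 6.76 in control 1, 2 and 4. Its difference was 0.23 ± 0.41, and -0.16 without relapsed 1. Matn2, a matrilin that bridges collagen networks, differed by 0.14 ± 0.27, and by -0.057 without control 2.

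Relapsed 1 had the highest value of the relapsed tumours for 29 of the 35 measured members (82.9%), against 38.3% of all genes. Tied values were assigned to the lower-numbered tumour, which can raise the share of all genes given for relapsed 1. The value of relapsed 1 exceeded the mean of relapsed 2 and 3 by a median of 0.67 on the log2 scale over the members, against -0.012 over all genes. The excess was above 1 for 11 members (31.4%), against 1.88% of all genes. It was largest for Mfap5 (2.18), Thbs4 (1.98), Fbln5 (1.71), Mfap2 (1.70), Mfap4 (1.62), Dpt (1.53) and Loxl1 (1.48), and it was smallest in size for Fn1 (-0.054), Matn2 (-0.11) and Cyr61 (0.13). Without relapsed 1 the members' median difference was 0.13 in place of 0.33, and 22 members had a higher and 13 a lower mean in relapsed tumours. Limma then called Efemp1, Pcolce, Wisp1 and Dpt higher and Fbn2 lower. Relapsed 1 also had the highest adipocyte marker level, at 2.46 against -0.60 and -0.32 in relapsed 2 and 3 and -0.73 to -0.29 in the controls, given as the average, over 9 marker genes, of each gene's log2 deviation from its own 6-array mean. Adipoq, an adipocyte hormone gene, stood at 9.81 there, against 5.29 and 5.88 in relapsed 2 and 3 and 5.54 to 5.82 in controls. The part of adipose tissue in the member values of relapsed 1 was not tested.

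**Figure D3:**
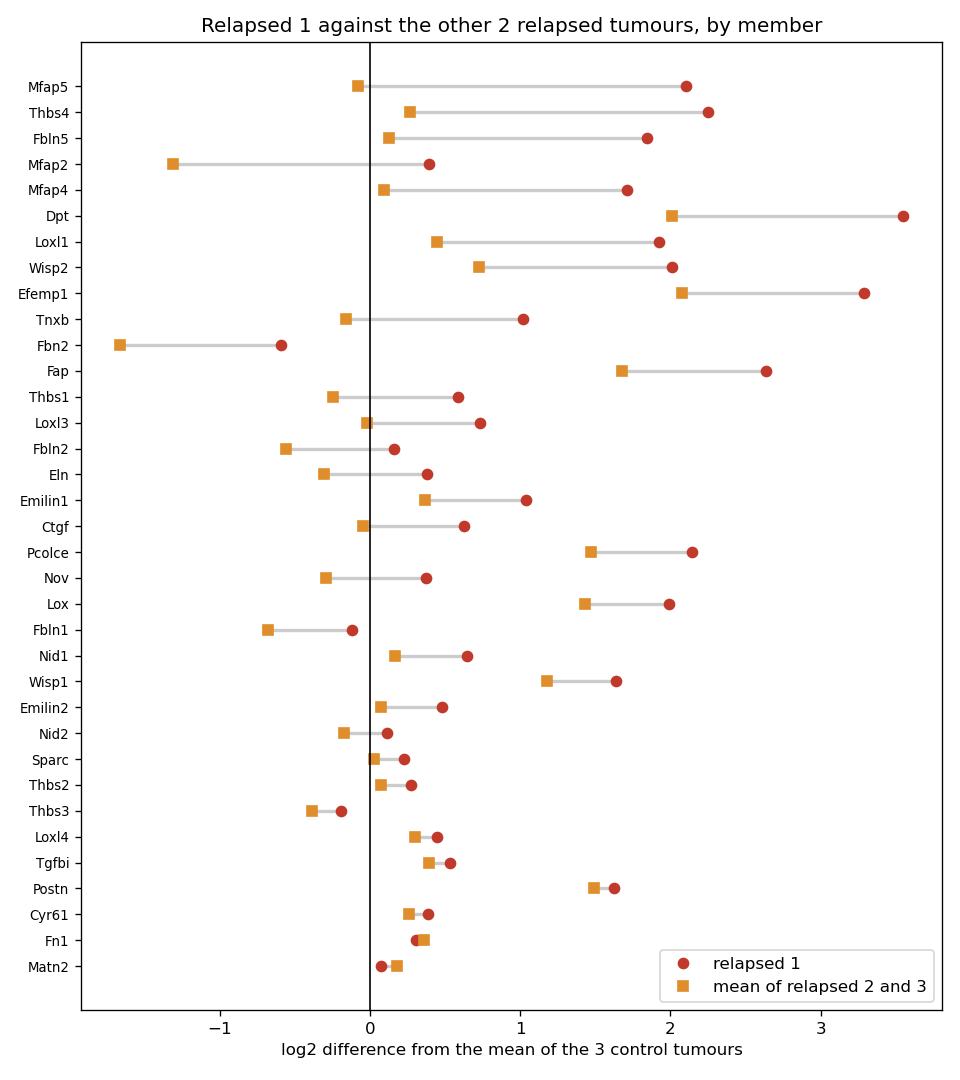
Log2 difference from the mean of the 3 control tumours (horizontal axis) for relapsed 1 (red circles) and for the mean of relapsed 2 and 3 (orange squares), for each of the 35 measured members, ordered by the gap between the 2 symbols. The gap is over 1.4 for Mfap5, Thbs4, Fbln5, Mfap2, Mfap4, Dpt and Loxl1, and near 0 for Postn, Cyr61, Fn1 and Matn2.

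Markers of some other cell types were higher in relapsed tumours, as the called members were, and those of others were not. On the same scale, the 14 fibroblast markers, which hold none of the members, stood at 0.28 to 0.87 in relapsed tumours, against -0.77 to -0.35 in controls. Of them 6 rose and none fell, against 3.69% of all genes called higher and 5.47% called lower. The groups of 10 did not overlap, all higher in relapsed tumours (against 13.0% of all genes). Dcn, the decorin gene, rose by 1.85 ± 0.13. The 12 macrophage markers stood at 0.54 to 1.13, against -0.91 to -0.58 in controls. Of these markers 9 rose and none fell (against 3.69% and 5.47% of all genes). The mannose receptor gene Mrc1 rose by 2.17 ± 0.13. Pericyte and smooth muscle markers stood at 0.67 in relapsed 1, against -0.13 and -0.22 in relapsed 2 and 3 and -0.28 to 0.10 in controls. None of these 11 was called. At an unadjusted p under 0.05, limma gave 0 higher and 1 lower, against 11.2% and 15.4% of all genes. Relapsed 3 had the highest keratinocyte level, at 1.39 against -0.40 to -0.16 in the other 5 tumours, and control 2 the highest skeletal muscle level, at 1.65 against -0.60 to 0.10. Of 10 measured glioma and neural progenitor markers, 5 fell and none rose, against 5.47% and 3.69% of all genes. Olig2 differed by -3.54 ± 0.43, while Nes and Gfap were not called. Nes and Gfap stood at 10.92 to 11.58 and 9.32 to 10.73 in relapsed tumours, against 11.78 to 12.28 and 8.63 to 9.84 in controls. None of the 9 adipocyte, 10 keratinocyte and 10 skeletal muscle markers was called. The 11 endothelial markers stood at -0.32 to 0.024 in relapsed tumours, against 0.0087 to 0.30 in controls. Of them 9 had a lower mean in relapsed tumours, and 3 had groups that did not overlap, all lower (against 17.8% of all genes). Robo4, an endothelial guidance receptor gene, was the 1 called (against 5.47% of all genes called lower) and fell by 0.58 ± 0.12. The 10 cartilage and tendon markers stood at 0.049 to 0.22, against -0.14 to -0.12 in controls. Among them Scx, a transcription factor gene of tendon, rose by 1.43 ± 0.16, and Sox9, one of cartilage and glia, fell by 0.66 ± 0.11. The part of these cell types in the members' differences was not tested.

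**Figure D4:**
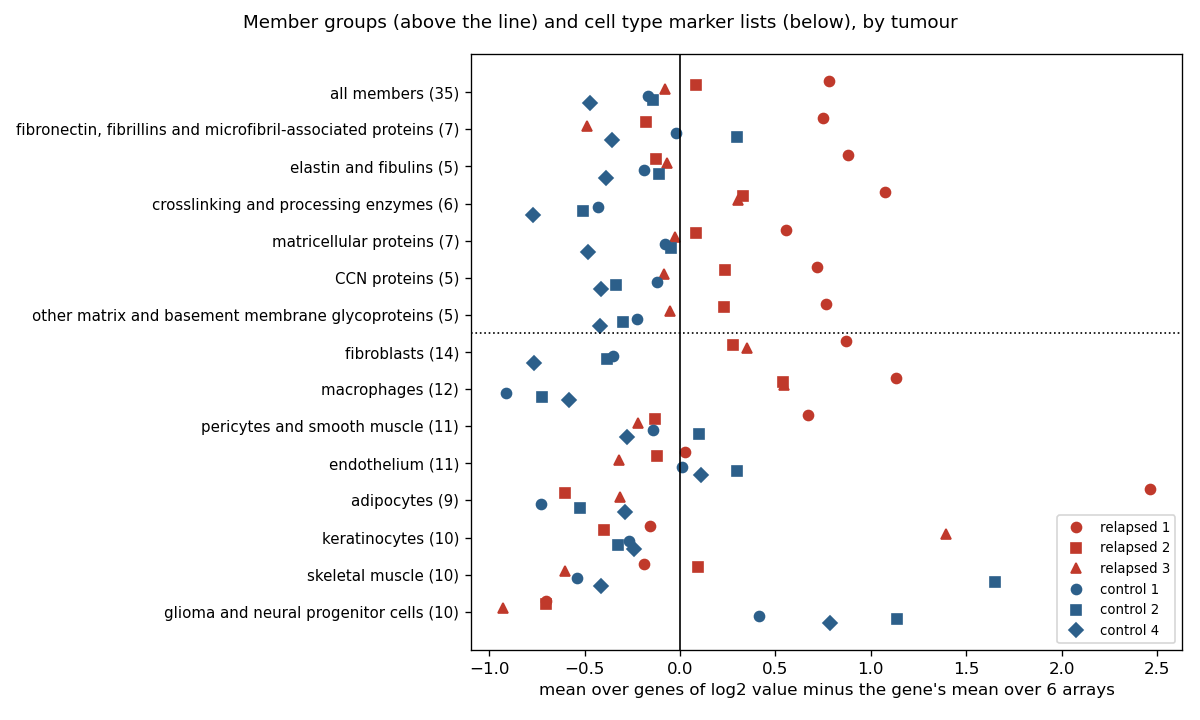
Average log2 deviation of the genes of a list from their own 6-array means (horizontal axis), for all measured members, their 6 functional groups and 8 cell type marker lists, with the number of genes in brackets; red symbols are relapsed and blue symbols control tumours. Relapsed 1 is the highest array for the members, for each of their groups and for fibroblast, macrophage, pericyte and adipocyte markers. Relapsed and control tumours do not overlap for the members as a whole, the crosslinking and processing group, the matricellular and CCN proteins and the other glycoproteins.

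Other matrix genes outside the members were called in both directions. Of 55 other matrix glycoproteins, 3 rose and 2 fell, with a median difference of 0.13. The shares of all genes called were 3.69% higher and 5.47% lower. Srpx2, a sushi-repeat protein, rose by 1.37 ± 0.27, and Hmcn1, which encodes hemicentin, by 0.79 ± 0.17. Npnt, the nephronectin gene of basement membranes, fell by 1.69 ± 0.25, and Agrn, the agrin proteoglycan of synaptic and vascular basement membranes, by 0.98 ± 0.12. The adjusted p of these 4 genes ran from 0.0169 to 0.0464 in limma.

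Among 25 other genes of collagen and elastin processing, 1 rose and 1 fell (against 3.69% and 5.47% of all genes). Serpinh1, the collagen chaperone of the endoplasmic reticulum, rose by 1.40 ± 0.23, or 2.64-fold (limma adjusted p = 0.0277). Plod3, a lysyl hydroxylase that also glycosylates collagen, fell by 0.58 ± 0.07 (limma adjusted p = 0.0176). Of 22 receptors that bind the members, 2 rose and none fell (against 3.69% and 5.47% of all genes). At an unadjusted p under 0.05, limma gave 7 higher and 2 lower, against 11.2% and 15.4% of all genes. Groups did not overlap for 8 higher and 2 lower, against 13.0% and 17.8%. Itgb5, the integrin beta subunit that pairs with the alpha v chain to bind vitronectin and periostin, rose by 0.92 ± 0.20 (limma adjusted p = 0.0497). Itgav, which encodes the alpha v chain, differed by -0.39 ± 0.15 and was not called (limma adjusted p = 0.177). Its relapsed values all lay below its control values. Stab1, a scavenger receptor of macrophages and sinusoidal endothelium that takes up Sparc, rose by 1.22 ± 0.21 (limma adjusted p = 0.0289).

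Target genes of YAP and TEAD other than Ctgf and Cyr61 moved both ways, with 2 of 20 risen and 3 fallen. Ankrd1, a muscle ankyrin repeat protein, rose by 1.64 ± 0.23 and Dock5, a Rac activator, by 1.18 ± 0.15. Amotl1, a junctional partner of YAP, fell by 0.99 ± 0.15 and Fjx1 by 0.67 ± 0.12. Of 19 genes of the TGF-beta response, which induces many of the members in fibroblasts, 4 rose and 1 fell, with a median difference of 0.45. Over all genes, 3.69% were called higher and 5.47% lower. The 4 were genes of a TGF-beta ligand and its receptors and Col1a1, which is also among the fibroblast markers. The other 14 genes of this list were not called. Groups did not overlap for 9 of the 19 genes with relapsed tumours higher and for 2 lower. The shares of all genes were 13.0% and 17.8%. At an unadjusted p under 0.05, limma gave 7 higher and 2 lower, against 11.2% and 15.4% of all genes. Whether the response was raised was not tested. Tgfbr1 and Tgfbr2, which encode the receptor chains, rose by 1.12 ± 0.23 and 0.76 ± 0.15, and Col1a1, which encodes the main chain of collagen I, by 1.13 ± 0.19. Cdh2, the N-cadherin gene, fell by 0.89 ± 0.14. Of these 16 called genes outside the members, each lost its call in at least 3 of the 6 fits that left out an array. Itgb5, Hmcn1, Srpx2, Tgfbr1 and Tgfbr2 also lost it in at least 1 fit that kept all 6 arrays, apart from the block fit, in which no gene was called.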

How the data were processed

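The deposited table holds log2 intensities, 1 per probe set and array, normalized by the authors before deposit, as read from values between 1.93 and 14.2 with array medians of 6.58 to 6.68. The submitters' processing notes name affy without a version, while the sources used here do not give its background correction or probe summarization. Per the labels' protocols, 5 ug of total RNA went into each labelling. Normalization between arrays hides a change shared by most transcripts. Of 35556 probe sets, 21789 had 1 gene symbol, 1621 several and 12146 none. The brightest probe set by mean stood for each of 19938 genes, and no dim gene was dropped. The CCN genes were matched through RefSeq synonyms.

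Relapsed and control tumours were compared with limma 3.58.1 in R 4.3.3 (lmFit, eBayes), with Benjamini-Hochberg adjustment over every gene, 4 residual and 1.53 prior degrees of freedom. The ± beside a difference is the SE from limma, and beside a group mean the SD over 3 arrays. The fit was run on simulated data with independent noise for each gene, which checks the code and not the calls made here. The labels do not say that tumours came from separate animals, so p-values measure the spread between these samples, and the number of arrays limits the precision. Alternatives were other normalizations, probe set choices, variance models, weights, the number as a block and each array left out. Ranges of adjusted p over the alternatives include the block fit, in which no gene was called, and the fits short of an array. The members and gene lists were chosen with earlier results of these data known. All measured members are named. Array values are given for called members and for those with parted groups and a difference of at least 1 on the log2 scale. From each other list up to 4 called genes with the largest difference are named. Array values of other members, and Dcn, Mrc1, Olig2, Nes, Gfap, Adipoq, Robo4, Scx, Sox9 and Itgav, were chosen after their values were seen.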

Additional observations from a re-analysis of the deposited data

How the results depend on the processing

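All results rest on 3 arrays per group. The count of members called higher was 6 to 8 under the alternatives that kept all 6 arrays, apart from the replicate number as a block, and 0 to 4 when an array was left out. The count called lower was 1 with array weights, 1 with the dimmer 50% of genes left out, and 0 to 1 when an array was left out. In each case with 1, that gene was Fbn2. Members with groups that did not overlap numbered 13 to 17 with an array left out (37.1% to 48.6%, against 36.9% to 42.6% of all genes in those fits). With median centring they made up 34.3%, against 47.3% of all genes. Over all genes, limma called 120 to 380 higher and 144 to 595 lower with an array left out, and 1687 lower with median centring. The groups share only the numbers 1 and 2, and deviations of same-numbered tumours correlated at -0.34 and -0.25, so the numbers were not taken as pairs. With the replicate number as a block, limma called 0 members higher and 0 genes in all in either direction. At an unadjusted p under 0.05 that fit gave 7 members and 1095 genes higher and 0 members and 1104 genes lower. It has 1 residual degree of freedom. Differences that changed sign were those of Thbs1 with median centring (-0.041), array weights (-0.12) and the block (-0.069), and of Eln (0.030) and Nov (0.32) with the block. With an array left out, those of Mfap5 ran from -0.077 to 1.26, Loxl3 from -0.018 to 0.42, Thbs1 from -0.28 to 0.35, Ctgf from -0.045 to 0.42, Tnxb from -0.16 to 0.63, Eln from -0.31 to 0.052, Thbs2 from -0.093 to 0.44, Nid2 from -0.18 to 0.020, Nov from -0.37 to 0.16 and Matn2 from -0.057 to 0.44. Other than Fbn2, Lox passed where it had not before. Among fits that kept all 6 arrays, the block aside, Fn1 lost its call in 2 and Fap in 1. None of the called members changed direction under any alternative that was run. Fits short of an array have fewer degrees of freedom, and other causes of these shifts were not tested.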

Other observations

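Among the 3 control tumours, control 4 had the lowest value for 23 of the 35 measured members (65.7%), against 24.4% of all genes. It also had the lowest fibroblast marker level, at -0.77 against -0.38 and -0.35 in the other 2 controls. The contractile genes Acta2 and Tagln, smooth muscle actin and transgelin, followed a like order without being called. Acta2 stood at 12.67, 11.67 and 11.38 in relapsed 1, 2 and 3, against 11.23, 11.54 and 10.33 in control 1, 2 and 4. Tagln stood at 10.67, 9.32 and 8.84 in relapsed 1, 2 and 3, against 8.77, 8.70 and 7.78 in control 1, 2 and 4. Both were picked with their values in view. They belong to the 11 pericyte and smooth muscle markers, of which 6 had a higher and 5 a lower mean in relapsed tumours. Other markers of that list, Notch3, Kcnj8 and Lmod1, had their highest control value in control 4.

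The deposited table holds many values that are identical on 2 or more arrays. This was so for 34.3% of probe sets and 38.9% of genes tested, compared without rounding, and 1168 genes had identical values on all 3 arrays of a group. Of the members, Sparc had the same value on relapsed 2, relapsed 3 and control 1, and Eln on control 1 and control 2. For the 1168 genes the SD of that group is 0. What made the values identical was not tested.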
